A study of Homo sapiens with 8 samples.

Results

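The HOX genes of clusters A to D were followed through 4 human cell lines. They were taken as every gene symbol made of HOX, a cluster letter from A to D and a number, which gave 39 of the 23615 gene symbols in the deposited expression table: 11 in HOXA, 10 in HOXB, 9 in HOXC and 9 in HOXD. The study sequenced total RNA, depleted of ribosomal RNA, from 3 lines that bind epoxyeicosatrienoic acids, which are epoxides of arachidonic acid, and from a line that does not, in a search for their receptor. The binding lines were U937 (leukemic), EaHy (endothelial) and PC3M (prostate cancer, grown as PC3M-LN4), all kept in RPMI, and the non-binding line was HEK293 (embryonic kidney), kept in DMEM. The labels name no added agent and no genetic change for any line, and all 4 media held serum and antibiotics. Each line gave 2 libraries from cells collected in duplicate, 8 in all. The labels do not say whether the duplicates were separate cultures, so each line stands for its cell type with a single established line, and p-values measure the spread between these libraries, which may be technical. Binding class, medium and line cannot be told apart.

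HOX genes encode homeodomain transcription factors that give cells a position along the head-to-tail axis and along the limbs. Within a cluster the genes stand in the order of their numbers, and in the embryo low-numbered genes are used earlier and nearer the head than high-numbered ones. Genes with the same number in different clusters are paralogs, copies of an ancestral gene. Many adult cells and cell lines keep part of this pattern. The proteins bind DNA together with the TALE cofactors of the PBX, MEIS and PKNOX families, Polycomb complexes keep unused stretches silent and trithorax (MLL) complexes keep used ones active. HOXA9 with MEIS1 is known for its role in myeloid leukemia, and HOXB13 is known as a prostate gene.

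Levels are given as FPKM, fragments scaled to the length of the transcript and to the mapped fragments of the library, which allows genes of different length to be compared. A gene was called present in a line at 0.5 FPKM or more in both libraries, absent under 0.5 FPKM in both, and split otherwise, so absent means below this limit and not zero. Genes numbered 1 to 3 are called anterior (8 genes), 4 to 8 central (15 genes) and 9 to 13 posterior (16 genes). No read counts were used, so the depth is unknown and no counting interval is given. Each library is a pool of cells, so fewer expressing cells and less RNA per cell cannot be told apart.

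The libraries differed in ways that touch every HOX level. EaHy replicate 2 and both PC3M libraries held 276000, 476000 and 507000 FPKM of the small RNA gene RMRP, against 12.3 to 1130 FPKM in the other 5, and the sum of FPKM over all genes was 1337962 to 1926028 in these 3 and 497389 to 647103 in the other 5. U937 replicate 1 and EaHy replicate 1 listed only 1337 and 1237 genes at 0, against 4662 to 8400 in the other 6 libraries, and no HOX gene at 0. The median of the tested genes on the log2(FPKM + 0.5) scale was lower than in HEK293 by 0.22 in U937, 0.67 in EaHy and 1.26 in PC3M. Of the line markers, U937 exceeded HEK293 for 7 of 7 myeloid genes and EaHy for 6 of 7 endothelial genes (not VWF), while the prostate genes KLK3 and FOLH1 stood at 0 to 0.0138 FPKM in PC3M, which had 36.9 and 10.5 FPKM of the epithelial gene EPCAM. EaHy also carried 331 and 199 FPKM of the epithelial keratin KRT8. Of 7 embryonic kidney and neuronal genes, 6 were lower than in HEK293 in U937, 4 in EaHy and 5 in PC3M. Over all tested genes 4.47% were higher than in HEK293 in U937 and 4.55% in EaHy. The shares lower were 10.6% in U937, 9.80% in EaHy and 25.3% in PC3M. Some markers reached 0.5 FPKM in a single line, so for them a difference was built in. These were MPO in U937, CDH5, TEK and TIE1 in EaHy, and NEFM, PAX2 and LHX1 in HEK293. The fibroblast list reached 0.5 FPKM in both libraries of a line for COL1A1 in HEK293 and THY1 in EaHy.

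The lines differed in how many HOX genes were present and in which clusters. U937 had 13 of 39 present, 7 split and 19 absent, EaHy 10 present, 16 split and 13 absent, PC3M 6 present, 3 split and 30 absent, and HEK293 35 present, 2 split and 2 absent. The lines also differed over all 23615 genes. Counted in each library alone, the limit was reached by 13851 and 12792 genes in U937 and 14403 and 11474 in EaHy. In PC3M 11680 and 9940 genes reached it, and in HEK293 14329 and 14348. By the looser rule of either library, 14490 genes reached it in U937, 14645 in EaHy, 12222 in PC3M and 14966 in HEK293. The HOX genes by that rule were 20, 26, 9 and 37 of 39. Shares of all genes present in both libraries were not counted. U937 used the HOXA cluster, with 9 of its 11 genes present together with HOXC4, HOXC6, HOXC8 and HOXC10, and none of the 10 HOXB or 9 HOXD genes was present. EaHy used a few genes of every cluster: HOXA5, HOXA9, HOXA10, HOXA11, HOXB6, HOXB7, HOXC4, HOXC9, HOXD8 and HOXD9. PC3M used posterior genes only by this rule, HOXA9, HOXA10, HOXA11, HOXA13, HOXB13 and HOXD13, and all 9 HOXC genes were absent. In HEK293 every HOXA gene was present, and the genes that were not were HOXB1 and HOXD1 (absent) and HOXC12 and HOXD12 (split).

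**Figure D1:**
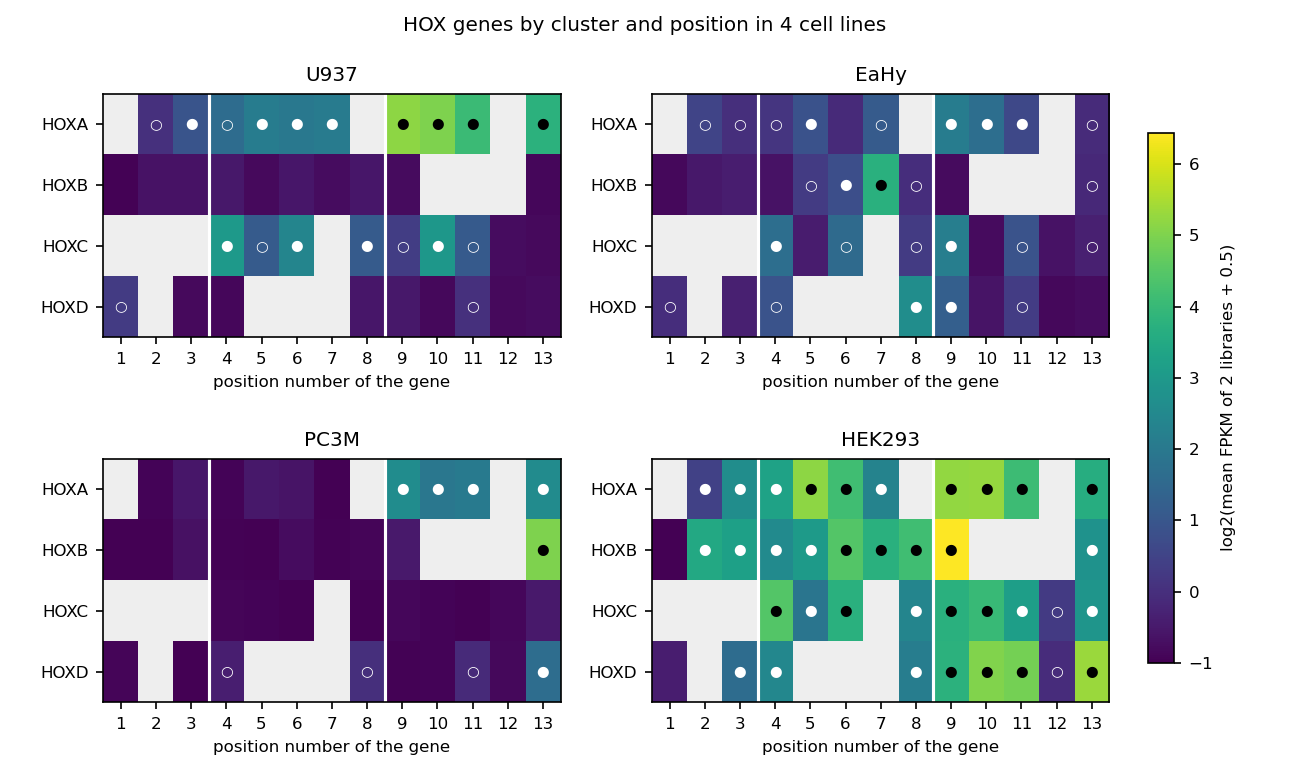
Each panel is a cell line; rows are the 4 clusters, columns the position number of the gene, and color the log2 of the mean FPKM of 2 libraries plus 0.5. Filled circles mark genes present, open circles genes split between libraries, grey fields numbers with no gene or none drawn, and white lines part anterior, central and posterior genes. PC3M shows 6 filled circles, all at positions 9 to 13, while HEK293 shows filled circles along all 4 clusters.

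These counts moved with the library and the limit where a line had many split genes. From the first library alone 26 genes reached the limit in EaHy and 20 in U937, against 10 and 13 from both, since EaHy replicate 2 was below EaHy replicate 1 for 39 of 39 HOX genes and U937 replicate 2 below U937 replicate 1 for 34 of 39. Among all genes reaching the limit in either library, 75.0% were lower in EaHy replicate 2 and 35.9% in U937 replicate 2. Of the HOX genes reaching it, 26 of 26 were lower in EaHy replicate 2 and 15 of 20 in U937 replicate 2. The median replicate difference on the log2 scale was −1.33 over the 26 HOX genes that reached the limit in EaHy and −0.60 over all such genes; in U937 it was −0.65 over 20 HOX genes and 0.36 over all such genes, so the HOX genes of U937 moved against the library as a whole. PC3M gave 8 of 9 such HOX genes lower in replicate 2 (median −1.47, all genes −1.27). HEK293 replicates differed by a median of 0.21 over 37 HOX genes.

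Taken gene by gene, HOXA9, HOXA10 and HOXA11 were present in all 4 lines. HOXA5, HOXA13 and HOXC4 were present in 3 lines, 14 genes in 2 lines, 15 in HEK293 alone, and HOXB1, HOXC12, HOXD1 and HOXD12 in none. The 15 were HOXA2, HOXA4, HOXB2, HOXB3, HOXB4, HOXB5, HOXB8, HOXB9, HOXC5, HOXC11, HOXC13, HOXD3, HOXD4, HOXD10 and HOXD11. No gene was present in U937, EaHy or PC3M and not in HEK293 by this rule. Neighbours in a cluster shared their state (present, split or absent) in 22 of 35 adjacent pairs in U937, 12 in EaHy, 28 in PC3M and 29 in HEK293. Paralogs with the same number shared it in 11 of 42 pairs in U937, 13 in EaHy, 26 in PC3M and 40 in HEK293, so in U937 the state went with the cluster more than with the number. In a GENCODE annotation of build GRCh38 the order of the genes by their 3′ ends followed their numbers in all 4 clusters.

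The summed level of the 39 genes was lowest in EaHy and PC3M. It came to 164 and 121 FPKM in U937, 79.2 and 27.5 FPKM in EaHy, 85.4 and 25.0 FPKM in PC3M, and 523 and 617 FPKM in HEK293. The ranges of EaHy and PC3M overlapped, and those of U937 and of HEK293 did not overlap with any other line.

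The split of that sum by position repeated closely between libraries even where the sum did not. The posterior share was 73.4% and 78.1% for U937, 32.4% and 33.5% for EaHy, 97.2% and 95.0% for PC3M, and 61.8% and 62.7% for HEK293. The central share was 23.1% and 18.8% for U937, 61.0% and 61.9% for EaHy, 2.33% and 3.22% for PC3M, and 32.9% and 31.3% for HEK293, so that central genes led in EaHy only. Anterior genes took no more than 6.52% in any library. By position the 4 lines therefore did not overlap with each other in their posterior or central share. A single gene bore on EaHy: without HOXB7, its highest gene, the posterior share was 39.7% and 55.1% and the central share 52.3% and 37.5%, so that the lead of central genes held in replicate 1 only. Without HOXB13, PC3M remained at 93.8% and 86.6% posterior.

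By cluster, HOXA gave 77.9% and 82.8% of the sum for U937, 27.5% and 23.2% for EaHy, 37.2% and 23.0% for PC3M, and 30% and 33.1% for HEK293. HOXB gave 1.32% and 0.132% for U937, 25.4% and 44.9% for EaHy, 56.0% and 65.0% for PC3M, and 28.2% and 33.4% for HEK293. U937 was thus set apart by HOXA and, at the low end, by HOXB. HOXB13 alone was 55.6% and 62.4% of the whole HOX sum of PC3M and HOXB7 18.3% and 39.1% of that of EaHy. HOXD gave 2.34% and 0.0888% for U937, 22.2% and 15.3% for EaHy, 6.70% and 8.93% for PC3M, and 26.4% and 18.6% for HEK293. HOXC stayed between 15.0% and 24.9% in U937, EaHy and HEK293 and was 0.0655% and 3.08% in PC3M. These shares are ratios within a library and were not tested.

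**Figure D2:**
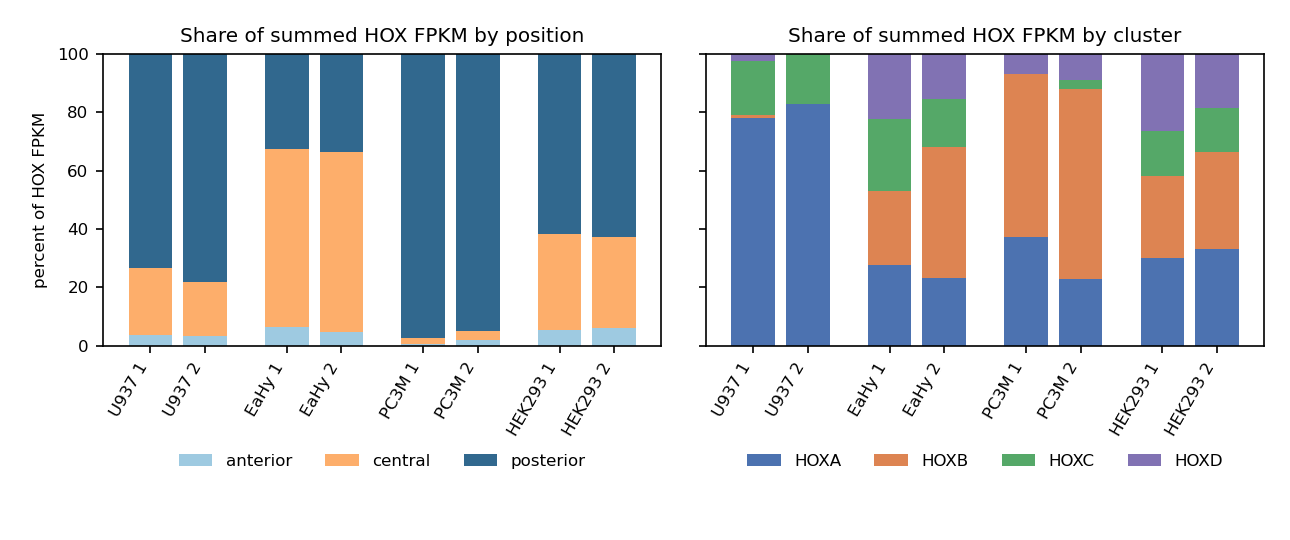
Stacked bars give the percent of summed HOX FPKM in each of the 8 libraries, split by position on the left and by cluster on the right. The posterior share is 97.2% and 95.0% in PC3M and 32.4% and 33.5% in EaHy, and the HOXA share is 77.9% and 82.8% in U937.

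The posterior HOXA genes carried most of the HOX signal of U937, and HOXA9, HOXA10 and HOXA11 were the HOX genes present in all lines. HOXA9, a posterior factor needed by blood progenitors, had 43.3 and 27.4 FPKM in U937, 5.76 and 1.91 FPKM in EaHy, 10.2 and 1.13 FPKM in PC3M, and 34.6 and 39.5 FPKM in HEK293. HOXA10, its neighbour, which also acts in the uterus, had 34.3 and 28.5 FPKM in U937, 3.75 and 1.76 FPKM in EaHy, 5.04 and 1.64 FPKM in PC3M, and 30.1 and 45.3 FPKM in HEK293. For both genes U937 overlapped with HEK293, EaHy overlapped with PC3M, and every library of the first pair was above every library of the second. HOXA11, a factor of limb and kidney development, followed the same order, with 12.6 and 20.1 FPKM in U937, 1.42 and 0.644 FPKM in EaHy, 5.90 and 1.25 FPKM in PC3M, and 13.8 and 19.3 FPKM in HEK293. HOXA13, which patterns the hand, foot and hindgut, had 17.5 and 8.85 FPKM in U937, 0.877 and 0 FPKM in EaHy, 9.88 and 1.25 FPKM in PC3M, and 13 and 10.9 FPKM in HEK293. EaHy was below all other lines for HOXA13, and PC3M replicate 1 lay within the U937 range.

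The start-site windows of 3 of these genes are shown with those of 2 posterior HOXD genes, HOXD11, which was present in HEK293 alone, and HOXD13, which was present in PC3M and HEK293, so that genes present in different numbers of lines stand side by side (HOXA9 and HOXA11 in 4, HOXA13 in 3). RefSeq promoter windows of build GRCh38.p14, lying mostly before the start and running a little into the transcript, were at hand for 20 of the 39 genes (27 windows). They are written 5′ to 3′ on the strand of the gene, with capitals marking the letters of the motifs searched on both strands: TATAAA, the core of a TATA box, TGACAG, a MEIS-type motif, and TGATTNAT, a PBX-HOX motif.
HOXA9 (chr7:27165488-27165787, minus strand): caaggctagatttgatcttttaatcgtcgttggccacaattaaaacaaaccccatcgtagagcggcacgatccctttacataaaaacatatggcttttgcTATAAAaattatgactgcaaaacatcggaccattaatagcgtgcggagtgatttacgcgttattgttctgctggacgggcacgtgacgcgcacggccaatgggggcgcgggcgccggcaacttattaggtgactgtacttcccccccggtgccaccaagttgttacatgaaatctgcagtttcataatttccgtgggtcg
HOXA11 (chr7:27185183-27185482, minus strand): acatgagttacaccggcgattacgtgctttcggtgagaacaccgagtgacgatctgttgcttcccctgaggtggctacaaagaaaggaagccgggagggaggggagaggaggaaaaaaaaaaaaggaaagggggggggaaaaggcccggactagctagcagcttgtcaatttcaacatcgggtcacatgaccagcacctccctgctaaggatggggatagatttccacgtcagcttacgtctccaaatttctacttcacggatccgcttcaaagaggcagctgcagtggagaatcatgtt
HOXA13 (chr7:27200042-27200341, minus strand): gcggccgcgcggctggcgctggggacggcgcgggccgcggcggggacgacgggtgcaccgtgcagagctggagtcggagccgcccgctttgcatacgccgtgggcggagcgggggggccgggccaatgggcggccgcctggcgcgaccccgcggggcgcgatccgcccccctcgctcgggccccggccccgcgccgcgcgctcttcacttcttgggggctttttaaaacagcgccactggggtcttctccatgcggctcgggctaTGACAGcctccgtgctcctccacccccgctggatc
HOXD11 (chr2:176107030-176107329, plus strand): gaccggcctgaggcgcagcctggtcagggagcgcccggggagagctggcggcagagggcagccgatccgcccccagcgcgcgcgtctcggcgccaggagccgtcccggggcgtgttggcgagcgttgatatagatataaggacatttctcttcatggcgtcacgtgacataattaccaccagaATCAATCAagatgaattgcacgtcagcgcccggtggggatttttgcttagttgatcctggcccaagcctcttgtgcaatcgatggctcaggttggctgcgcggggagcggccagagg
HOXD13 (chr2:176092471-176092770, plus strand): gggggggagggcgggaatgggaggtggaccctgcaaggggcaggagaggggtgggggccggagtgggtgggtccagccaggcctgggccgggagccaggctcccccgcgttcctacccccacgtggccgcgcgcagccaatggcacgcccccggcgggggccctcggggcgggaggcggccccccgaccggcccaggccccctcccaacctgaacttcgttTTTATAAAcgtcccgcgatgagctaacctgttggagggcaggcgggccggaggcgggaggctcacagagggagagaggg
TATAAA stood in the windows of HOXA3, HOXA9, HOXA10 and HOXD13 and in 11.5% of all 35116 windows. In HOXD13 the capitals cover overlapping matches on both strands. TGATTNAT stood in those of HOXA2 and HOXD11 and in 2.82% of all windows, and TGACAG in those of HOXA2, HOXA4, HOXA13 and HOXD4 and in 15.8%. HOXA11 held none of the 3. The windows had a median of 22 CpG dinucleotides, against 14 over all windows, at a median GC content of 58.0%, against 58.7%. A match is a string of letters and not a shown binding site. Windows of the other HOX genes, HOXB7, HOXB9 and HOXB13 among them, were not used here.

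The anterior and central HOXA genes were lower than the posterior ones in U937. HOXA5, a factor of lung and thoracic development, had 4.10 and 3.59 FPKM in U937, 2.08 and 0.621 FPKM in EaHy, 0.155 and 0.242 FPKM in PC3M, and 25.8 and 46.3 FPKM in HEK293. The order was the same in every library, with HEK293 highest, then U937, EaHy and PC3M, and no 2 lines overlapped. HOXA2 to HOXA7 together spanned 0.375 to 4.78 FPKM in U937, 0.0493 to 3.18 FPKM in EaHy, 0 to 0.25 FPKM in PC3M, and 0.842 to 46.3 FPKM in HEK293. HOXA7 was listed at 0 in both PC3M libraries.

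In HOXB the 4 lines differed by single genes against a cluster that was present in HEK293 but for HOXB1. HOXB7, a central factor, had 0.164 and 0.0149 FPKM in U937, 14.5 and 10.7 FPKM in EaHy, 0 and 0.0337 FPKM in PC3M, and 10.7 and 14.7 FPKM in HEK293. EaHy overlapped with HEK293, while its neighbour genes HOXB6, with 1.64 and 0.817 FPKM, and HOXB8, with 0.759 and 0.186 FPKM, stood far lower in EaHy than in HEK293, which had 20.3 and 22.4 FPKM of HOXB6 and 14.6 and 19.8 FPKM of HOXB8. HOXB9, the most abundant HOX gene of HEK293, had 0.152 and 0.00696 FPKM in U937, 0.163 and 0 FPKM in EaHy, 0.18 and 0.235 FPKM in PC3M, and 64.8 and 108 FPKM in HEK293. HOXB9 thus led the HOX genes of HEK293 and stood below the limit in all 6 other libraries.

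HOXB13, the last gene of the cluster, had 0.0978 and 0 FPKM in U937, 0.692 and 0.133 FPKM in EaHy, 47.5 and 15.6 FPKM in PC3M, and 4.80 and 7.95 FPKM in HEK293. Both PC3M libraries were above all others, and HEK293 lay above EaHy and U937. It was the highest HOX gene of PC3M, while the prostate genes KLK3 and FOLH1 were at or near 0 there. From HOXB1 to HOXB9 no value in PC3M passed 0.235 FPKM and none in U937 passed 0.367 FPKM.

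HOXC and HOXD followed other lines. HOXC4, the most anterior gene of its cluster, known also from lymphoid cells, had 10.6 and 4.35 FPKM in U937, 4.94 and 0.565 FPKM in EaHy, 0 and 0.0803 FPKM in PC3M, and 19.6 and 23.3 FPKM in HEK293. HOXC6, a central thoracic factor, had 4.80 and 4.68 FPKM in U937, 4.85 and 0.102 FPKM in EaHy, was listed at 0 in both PC3M libraries, and had 13.9 and 11.3 FPKM in HEK293. For both genes HEK293 was above every other library and the 2 EaHy libraries were far apart. HOXC9, known from thoracic motor neurons, had 1.33 and 0.221 FPKM in U937, 4.38 and 3.77 FPKM in EaHy, 0.0560 and 0.0439 FPKM in PC3M, and 11 and 14.4 FPKM in HEK293, so here EaHy was above U937. HOXC10, a hindlimb and lumbar factor, had 5.45 and 8.77 FPKM in U937, 0.165 and 0 FPKM in EaHy, 0 and 0.0446 FPKM in PC3M, and 12.5 and 18.9 FPKM in HEK293, and thus separated U937 and HEK293 from the other lines.

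HOXD8, a central gene of its cluster, had 0.371 and 0.000562 FPKM in U937, 8.69 and 2.94 FPKM in EaHy, 0.883 and 0.108 FPKM in PC3M, and 3.92 and 4.05 FPKM in HEK293. EaHy spanned the HEK293 values and was above U937 and PC3M. HOXD10, a factor of lumbar motor neurons and hindlimb, had 0.122 and 0 FPKM in U937, 0.252 and 0.0470 FPKM in EaHy, 0.0468 and 0 FPKM in PC3M, and 45.7 and 19.2 FPKM in HEK293. HOXD11, which acts with HOXA11 in the forearm and kidney, had 0.995 and 0.0414 FPKM in U937, 1.51 and 0 FPKM in EaHy, 0 and 0.836 FPKM in PC3M, and 32.6 and 25.6 FPKM in HEK293. Both were high in HEK293 alone. HOXD13, the digit and genital factor at the end of the cluster, had 0.186 and 0.00818 FPKM in U937, 0.176 and 0 FPKM in EaHy, 4.12 and 1.16 FPKM in PC3M, and 29.3 and 49.1 FPKM in HEK293, so PC3M stood between HEK293 and the 2 other lines without overlap.

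**Figure D3:**
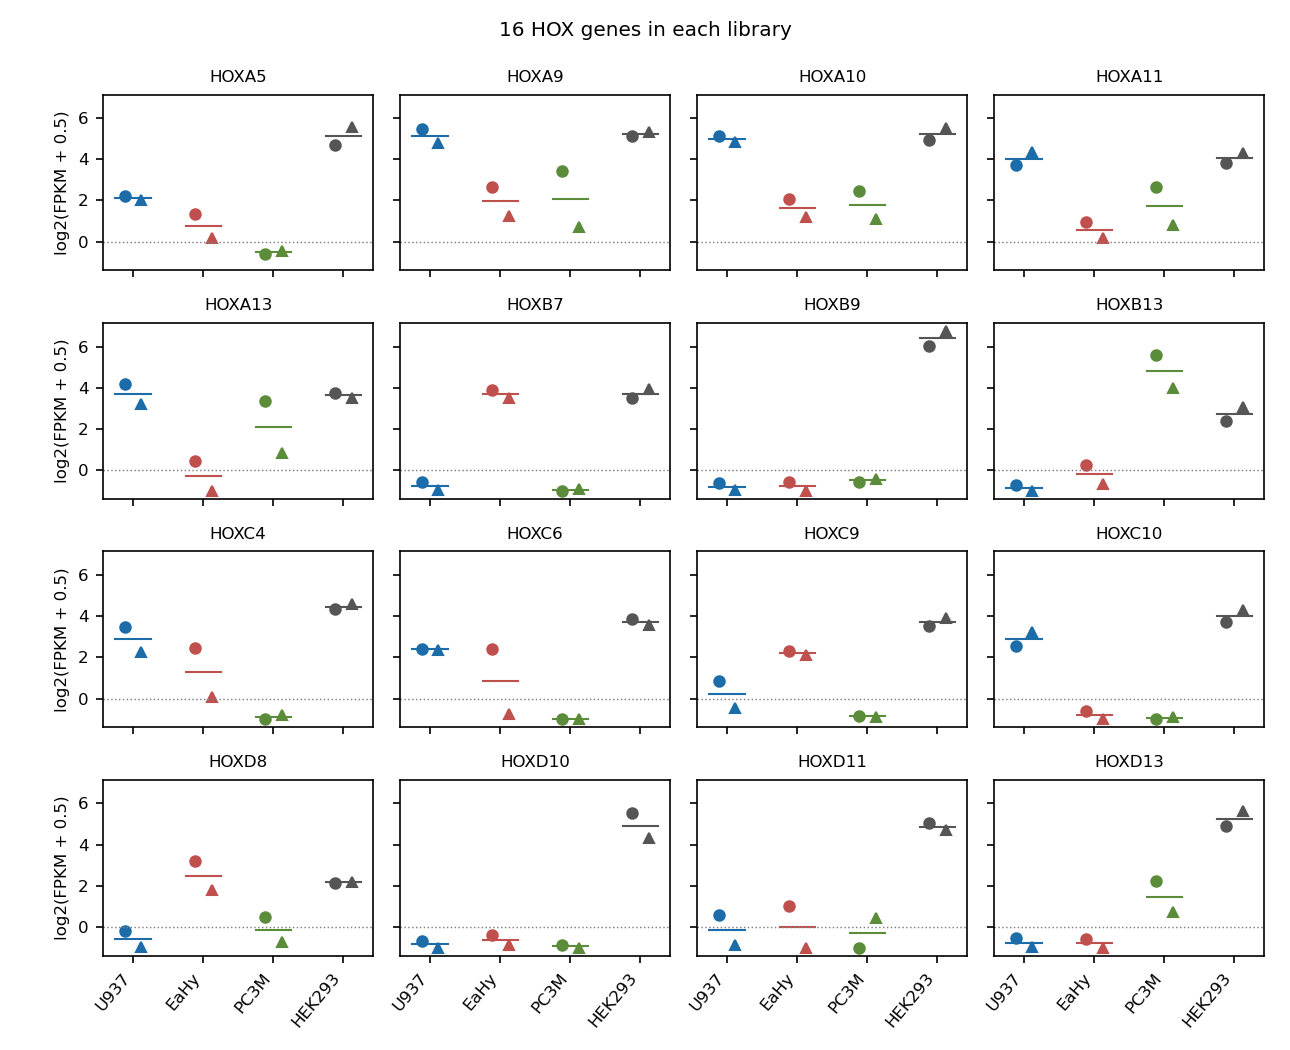
Each panel is one of 16 HOX genes; circles are replicate 1 and triangles replicate 2 of each line, the short line is their mean, and the y axis is log2(FPKM + 0.5), with the dotted line at 0.5 FPKM. HOXB9 and HOXD10 are high in HEK293 alone, HOXB13 is highest in PC3M with 47.5 and 15.6 FPKM, and HOXB7 is as high in EaHy as in HEK293.

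The levels of some neighbours are not independent. In the annotation, HOXB3 with HOXB4 and HOXB6, HOXC4 with HOXC5 and HOXC6, HOXC6 with HOXC9, and HOXD10 with HOXD11 share an exon on the same strand, 9 genes in all, and the split of fragments among them by the authors' estimation is uncertain. An antisense or other opposite-strand gene overlaps an exon of 19 of the 39 genes, and since the strand setting is not given in the sources used here, reads of the pair cannot be told apart. HOXA11, for example, overlaps HOXA11-AS, which had 17.3 and 13.2 FPKM in U937, 0.884 and 0.168 FPKM in EaHy, 4.12 and 0.451 FPKM in PC3M, and 12.9 and 15.4 FPKM in HEK293. HOXB7, HOXB9, HOXB13, HOXD8 and HOXD13 have neither kind of overlap.

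Differences between lines were tested with limma on log2(FPKM + 0.5), over the 16295 genes that reached 0.5 FPKM in 2 or more libraries, and a gene was called at a Benjamini-Hochberg adjusted p under 0.05. The filter passed 36 HOX genes and left out HOXB1, HOXC12 and HOXD12. HOXB2, HOXB3, HOXB4, HOXB9, HOXD3 and HOXD10 passed it through HEK293 alone, so for these 6 genes a difference from HEK293 was built in. In the text these 6 are given without a p against HEK293, and the counts are given with and without them. HOXB5, HOXB8, HOXC5 and HOXC13 reached 0.5 FPKM in 3 libraries, both of HEK293 and a single one of EaHy or, for HOXC5, U937. They also needed HEK293 to pass, so the filter favored a difference for them, and they stay in both counts. The 3 comparisons with HEK293 share its 2 libraries, and the scale of the values bears on them: the share of all tested genes lower in PC3M than in HEK293 was 12.1% under upper-quartile scaling and 8.98% under quantile normalization, with 6.96% and 7.87% higher, against 25.3% lower and 2.39% higher as deposited. The counts under each scaling are given beside those of the deposited values. All differences are on the log2(FPKM + 0.5) scale, which understates changes of low genes. They are given with the standard error from the limma fit, which pools the spread of all 8 libraries. It is therefore not the spread of the 2 lines compared alone.

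Against HEK293, U937 was lower for 20 of the 36 tested HOX genes and higher for 0, and for 14 of 30 without the 6 genes named above. Over all tested genes 10.6% were lower and 4.47% higher. At an unadjusted p under 0.05 the HOX counts were 23 lower and 0 higher. Under upper-quartile scaling 19 were called lower, beside 10.5% of all tested genes lower and 5.49% higher, and under quantile normalization 20, beside 9.65% lower and 7.66% higher. The median difference over all 39 HOX genes was −2.46, against 0.00 over all 23615 genes. The 20 genes were all 9 tested HOXB genes, 7 of 8 HOXD genes, HOXA5, HOXA6, HOXC9 and HOXC13. Without the 6 genes, 5 of 5 HOXB, 5 of 6 HOXD, 2 of 11 HOXA and 2 of 8 HOXC genes were called. Among these calls, HOXB5, HOXB8 and HOXC13 also needed HEK293 to pass the filter. As a description, HOXB9 differed by −7.19 ± 0.50 and HOXD10 by −5.76 ± 0.52. Of the other genes, HOXD13 differed by −6.03 ± 0.63 (adjusted p = 0.000842), HOXD11 by −5.03 ± 0.84 (adjusted p = 0.00475) and HOXB7 by −4.48 ± 0.50 (adjusted p = 0.00101). HOXA9, HOXA10, HOXA11 and HOXA13 were not called, with differences of −0.10, −0.24, −0.03 and 0.06. Their 95% intervals, −2.27 to 2.07, −1.83 to 1.36, −1.75 to 1.68 and −2.05 to 2.18 on the same scale, are wide. Without U937 replicate 2 the count was 13, and the calls of HOXD11 (adjusted p = 0.0519) and HOXC9 (adjusted p = 0.0544) were lost. HOXA5 was called at −3.02 ± 0.61 (adjusted p = 0.0117) and HOXB13 at −3.61 ± 0.68 (adjusted p = 0.00833), and both calls were lost without U937 replicate 1, U937 replicate 2 or HEK293 replicate 2, while HOXD8, at −2.76 ± 0.66 (adjusted p = 0.0233), was lost without any one of the 4 libraries compared and with no filter on low values (adjusted p = 0.088).

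Against HEK293, EaHy was lower for 26 of the 36 HOX genes and higher for 0, where 9.80% of all tested genes were lower and 4.55% higher. Without the 6 genes that passed the filter through HEK293 alone it was lower for 20 of 30. These still include HOXB5, HOXB8, HOXC5 and HOXC13, which also needed HEK293 to pass. At an unadjusted p under 0.05, 31 were lower and 0 higher. Under upper-quartile scaling 22 were called lower, beside 8.64% of all tested genes lower and 7.04% higher, and under quantile normalization 23, beside 8.68% lower and 8.75% higher. The median over the 39 was −3.03, against −0.19 over all genes. The calls covered 8 genes of HOXA, 8 of HOXB, 5 of HOXC and 5 of HOXD, and without the 6 genes 8, 4, 5 and 3. HOXB9 differed by −7.19 ± 0.50 and HOXD10 by −5.55 ± 0.52, again as a description. HOXD13 differed by −6.05 ± 0.63 (adjusted p = 0.00101), HOXD11 by −4.87 ± 0.84 (adjusted p = 0.00644) and HOXC10 by −4.78 ± 0.52 (adjusted p = 0.00107). HOXB7, at −0.01 with a 95% interval of −1.15 to 1.14, and HOXD8, at 0.33 with an interval of −1.18 to 1.84, were the genes of EaHy nearest to HEK293 among those present in both lines. HOXA9 was not called at −3.27 ± 0.95 (adjusted p = 0.0545), and it was called under upper-quartile scaling (−2.76, adjusted p = 0.0392), under quantile normalization (−2.87, adjusted p = 0.0261) and without either PC3M library (adjusted p = 0.0168 and 0.0173). Of the 36, 15 were called once EaHy replicate 2 was left out, and 14 or 13 once HEK293 replicate 1 or 2 was. The other named genes called were HOXA5 at −4.37, HOXA10 at −3.60, HOXA11 at −3.50, HOXA13 at −3.90, HOXB13 at −2.95 and HOXC4 at −3.18. Leaving out any of these 3 libraries ended the calls of HOXA10, HOXA11, HOXA13, HOXB13 and HOXC4, with adjusted p between 0.0568 and 0.196. HOXB13 was also lost without U937 replicate 2, and HOXC4 also without either U937 or either PC3M library and under upper-quartile scaling (adjusted p = 0.0716). With no filter the calls of HOXA13, HOXB13 and HOXC4 were lost (adjusted p = 0.0916, 0.0706 and 0.107), and HOXC4 was lost as well at a pseudocount of 0.1 (adjusted p = 0.0615) and in a fit of the 2 lines alone (adjusted p = 0.0756). Without the 3 libraries high in RMRP, an alternative added after seeing the data, 18 HOX genes were lower in EaHy than in HEK293, and the call of HOXC4 was lost (adjusted p = 0.147).

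Against HEK293, PC3M was lower for 32 of the 36 HOX genes and higher for 0, where 25.3% of all tested genes were lower and 2.39% higher. Without the 6 genes that passed the filter through HEK293 alone it was lower for 26 of 30. HOXB5, HOXB8, HOXC5 and HOXC13, which also needed HEK293 to pass, are among the 26. At an unadjusted p under 0.05, 33 were lower and 1, HOXB13, higher. Under upper-quartile scaling 27 were called lower and 1 higher, and under quantile normalization 25 and 1, against the scaled shares of all genes given above. The median over the 39 was −3.48, against −0.60 over all genes. All 15 central genes and all 8 tested HOXC genes were among the 32, and the 4 genes not called were HOXA2, HOXA13, HOXB13 and HOXD1. HOXB9 differed by −6.90 ± 0.50 and HOXD10 by −5.85 ± 0.52, as a description. HOXA5 differed by −5.65 ± 0.61 (adjusted p = 0.00148), HOXC4 by −5.34 ± 0.82 (adjusted p = 0.00479) and HOXD13 by −3.79 ± 0.63 (adjusted p = 0.00663). HOXB13 stood 2.05 ± 0.68 above HEK293, which did not pass (adjusted p = 0.0543). Relative to the median of the tested genes, −1.26, it was 3.31 higher. It was called higher under upper-quartile scaling (3.42, adjusted p = 0.00377), quantile normalization (3.26, adjusted p = 0.00247), a pseudocount of 1 (1.98, adjusted p = 0.0424), and without PC3M replicate 2 (2.84, adjusted p = 0.04999).

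Without PC3M replicate 2, 19 HOX genes were lower in PC3M than in HEK293 and 1 was higher. Without HEK293 replicate 1 or 2, 21 and 19 were lower. HOXA9, HOXA10 and HOXA11, present in PC3M, were called lower at −3.17 ± 0.95 (adjusted p = 0.0409), −3.44 ± 0.70 (adjusted p = 0.0137) and −2.33 ± 0.75 (adjusted p = 0.0496). Each was lost without PC3M replicate 2 or either HEK293 library. HOXA9 and HOXA11 were also lost under upper-quartile scaling (adjusted p = 0.0919 and 0.0921) and quantile normalization (adjusted p = 0.0906 and 0.125), and without either U937 library, and HOXA11 without either EaHy library as well. HOXC6 was lost without PC3M replicate 2 or either HEK293 library, HOXD13 without HEK293 replicate 2 (adjusted p = 0.0574), and HOXD8 without PC3M replicate 2, either U937 or either HEK293 library and under both scalings. With no filter the calls of HOXA9, HOXA11, HOXC6 and HOXD8 were lost, in a fit of the 2 lines alone those of HOXA9, HOXA11 and HOXD8, and at a pseudocount of 0.1 those of HOXA11 and HOXD8. Both PC3M libraries stood apart in RMRP and in the sum of FPKM, and the part of this in the differences from HEK293 was not tested.

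**Figure D4:**
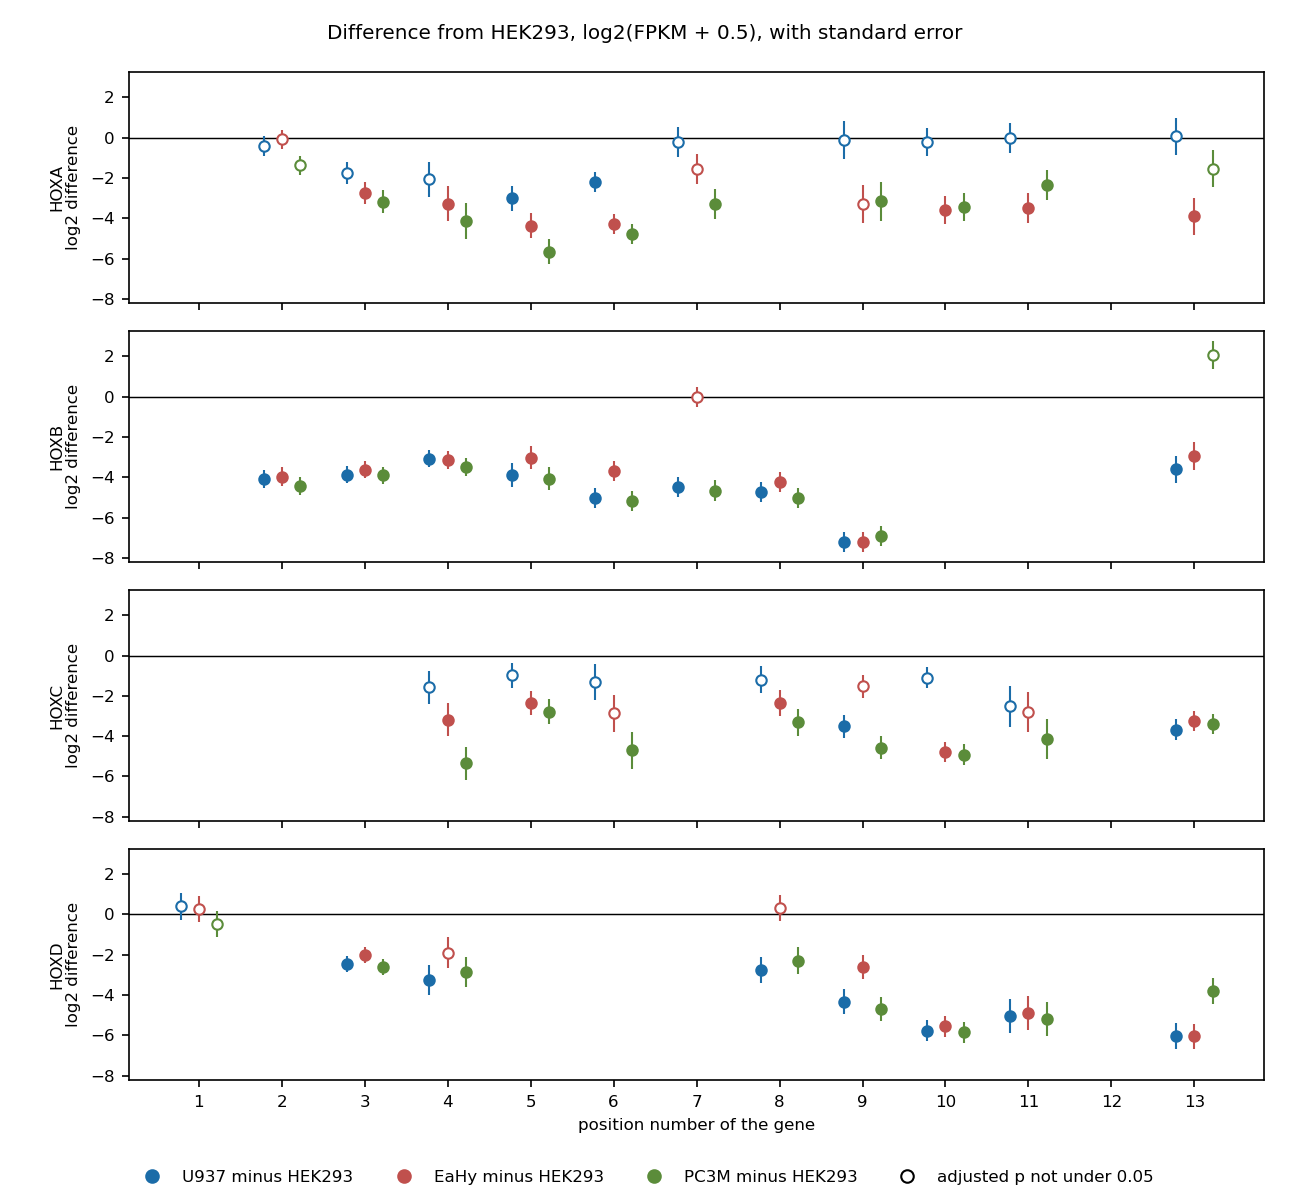
Points give the log2 difference of U937, EaHy and PC3M from HEK293 for tested HOX genes by position, one panel a cluster, with standard error bars; filled points have an adjusted p under 0.05. HOXB2, HOXB3, HOXB4, HOXB9, HOXD3 and HOXD10 passed the filter through HEK293 alone. Their difference from HEK293 was built in, so their filled points are a description only. HOXB5, HOXB8, HOXC5 and HOXC13 also needed HEK293 to pass, so the filter favored a difference for them. U937 lies near 0 at HOXA9 to HOXA13 and at −7.19 for HOXB9, EaHy near 0 at HOXB7 and HOXD8, and PC3M above 0 at HOXB13.

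Between the lines that bind, U937 was higher than EaHy for 5 of the 36 HOX genes and lower for 2, where 5.95% of all tested genes were higher and 6.77% lower. The median over the 39 was 0.02, against 0.07 over all genes. Under upper-quartile scaling 6 were higher and 3 lower, beside 7.13% and 10.1% of all tested genes, and under quantile normalization 6 and 5, beside 9.13% and 10.8%. The higher genes were HOXA6, HOXA10, HOXA11, HOXA13 and HOXC10, 4 of them posterior, and the lower ones were HOXB7 and HOXD8, both central. HOXB7 differed by −4.47 ± 0.50 (adjusted p = 0.000942), HOXA13 by 3.97 ± 0.92 (adjusted p = 0.025), HOXC10 by 3.69 ± 0.52 (adjusted p = 0.00247), HOXA11 by 3.47 ± 0.75 (adjusted p = 0.0178), HOXA10 by 3.36 ± 0.70 (adjusted p = 0.0151) and HOXD8 by −3.09 ± 0.66 (adjusted p = 0.0171). HOXB7 and HOXC10 were called under every alternative tried. HOXA9 was not called at 3.17 ± 0.95 (adjusted p = 0.0671), and it was called under upper-quartile scaling (adjusted p = 0.0354), under quantile normalization (adjusted p = 0.024) and without either PC3M library (adjusted p = 0.0186 and 0.0189). Without U937 replicate 1 or U937 replicate 2 the count was 2. The calls of HOXA10, HOXA11 and HOXA13 were lost without either U937 library or EaHy replicate 2, and that of HOXD8 without either U937 library or EaHy replicate 1. With no filter the calls of HOXA11 (adjusted p = 0.0583), HOXA13 (adjusted p = 0.101) and HOXD8 (adjusted p = 0.0753) were lost, and the count was 3. HOXD8 was also lost in a fit of the 2 lines alone (adjusted p = 0.0612).

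U937 was higher than PC3M for 8 of the 36 HOX genes and lower for 2, where 17.2% of all tested genes were higher and 4.57% lower. The median over the 39 was 0.41, against 0.35 over all genes, so the count of higher HOX genes was near the background. The split of the HOX calls was 8 and 2 under upper-quartile scaling and 7 and 2 under quantile normalization, where 12.8% and 12.4% of all tested genes were higher and 12.3% and 12.5% lower. HOXA5, HOXA6, HOXA7, HOXA10, HOXC4, HOXC6 and HOXC10 were among the higher genes, and the lower ones were HOXB13 and HOXD13. HOXB13 differed by −5.67 ± 0.68 (adjusted p = 0.00163), HOXC10 by 3.83 ± 0.52 (adjusted p = 0.00266), HOXC4 by 3.77 ± 0.82 (adjusted p = 0.0181), HOXA10 by 3.21 ± 0.70 (adjusted p = 0.0179), HOXA5 by 2.64 ± 0.61 (adjusted p = 0.0223) and HOXD13 by −2.23 ± 0.63 (adjusted p = 0.04). HOXB13 and HOXC10 were called under every alternative tried. The count was 3 without either U937 library and 4 without PC3M replicate 2, and HOXA5, HOXA10 and HOXC4 were lost without any one of these 3. HOXC6 was lost without any U937, PC3M or HEK293 library, and HOXD13 without either U937, either HEK293 library or PC3M replicate 1. With no filter the count was 4, and the calls of HOXA5 (adjusted p = 0.0568), HOXC4 (adjusted p = 0.0688), HOXC6 (adjusted p = 0.112) and HOXD13 (adjusted p = 0.0996) were lost. In a fit of the 2 lines alone HOXA10 (adjusted p = 0.0591) and HOXD13 (adjusted p = 0.0594) were lost, and HOXD13 also at a pseudocount of 1 (adjusted p = 0.0631).

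EaHy was higher than PC3M for 3 of the 36 HOX genes, HOXB7, HOXC9 and HOXD8, and lower for 1, HOXB13, where 6.28% of all tested genes were higher and 1.44% lower. The median over the 39 was 0.50, against 0.23 over all genes, and the counts were near the background. Under upper-quartile scaling 3 were higher and 4 lower, beside 8.41% and 6.70% of all tested genes, and under quantile normalization 4 and 4, beside 7.43% and 7.10%, so the lean to EaHy depends on the scale. HOXB7 differed by 4.65 ± 0.50 (adjusted p = 0.00149), HOXB13 by −5.00 ± 0.68 (adjusted p = 0.00416), HOXC9 by 3.05 ± 0.58 (adjusted p = 0.0163) and HOXD8 by 2.62 ± 0.66 (adjusted p = 0.0497). With limma fitted on these 2 lines alone 0 HOX genes were called, and 8 had an unadjusted p under 0.05. Without EaHy replicate 1 the count was 2, and without EaHy replicate 2 it was 10. HOXC9 was lost without EaHy replicate 1 (adjusted p = 0.0694) or PC3M replicate 2 (adjusted p = 0.0708), and HOXD8 was lost without EaHy replicate 1, PC3M replicate 2, or any U937 or HEK293 library. With no filter the count was 2 and both HOXC9 (adjusted p = 0.0593) and HOXD8 (adjusted p = 0.147) were lost, and HOXD8 was lost at a pseudocount of 0.1 (adjusted p = 0.0919). HOXA9 and HOXA10, present in both lines, differed by −0.11 and −0.15, with 95% intervals of −2.27 to 2.06 and −1.75 to 1.44.

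The noncoding genes within the clusters gave levels that can be set beside their neighbours. Of 24 listed, 17 were in the table and 14 were tested, and against HEK293 7 were lower in U937, 7 in EaHy and 7 in PC3M, with 1 higher in PC3M, at median differences over the 17 of −0.67, −0.89 and −1.18. Of all tested genes 10.6%, 9.80% and 25.3% were lower in U937, EaHy and PC3M. HOXB-AS3 overlaps exons of HOXB3, HOXB5 and HOXB6, so their reads cannot be told apart. HOXB-AS3 had 0.623 and 0 FPKM in U937, 3.78 and 0.311 FPKM in EaHy, 0.228 and 0 FPKM in PC3M, and 34.9 and 25.0 FPKM in HEK293, high where its HOXB neighbours were high. HOTAIR, from the posterior HOXC stretch, had 0.297 and 0.169 FPKM in U937, 0.216 and 0 FPKM in EaHy, 0 and 0.0822 FPKM in PC3M, and 5.43 and 5.11 FPKM in HEK293. HOTAIR passed the filter through HEK293 alone, so its place among the lower genes was built in. The gene higher in PC3M was HOXB-AS5, also named PRAC2, which lies near HOXB13. It had 0.0456 and 0 FPKM in U937, 0.0131 and 0 FPKM in EaHy, 45.7 and 27.2 FPKM in PC3M, and 1.60 and 2.72 FPKM in HEK293. It differed from HEK293 by 3.79 ± 0.51 in PC3M (limma, adjusted p = 0.003). PRAC (PRAC1), which lies between HOXB-AS5 and HOXB13, had 0.271 and 0 FPKM in U937, 0.0444 and 0 FPKM in EaHy, 289 and 359 FPKM in PC3M, and 1.69 and 0.403 FPKM in HEK293. The high stretch of PC3M thus held HOXB-AS5, PRAC and HOXB13, while HOXB9, the nearest HOX gene, stood at 0.18 and 0.235 FPKM, TTLL6 on the far side of HOXB13 at 0.0320 and 0.0503 FPKM, and the microRNA gene MIR3185 between PRAC and HOXB13 was listed at 0 in both PC3M libraries. At the end of HOXA, HOTTIP, which overlaps HOXA13, had 1.18 and 1.10 FPKM in U937, 0.0791 and 0 FPKM in EaHy, 1.60 and 0.400 FPKM in PC3M, and 0.409 and 0.133 FPKM in HEK293. HOTAIR, HOTTIP, HOXA11-AS, PRAC, TTLL6 and MIR3185 were chosen after their values were seen.

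**Figure D5:**
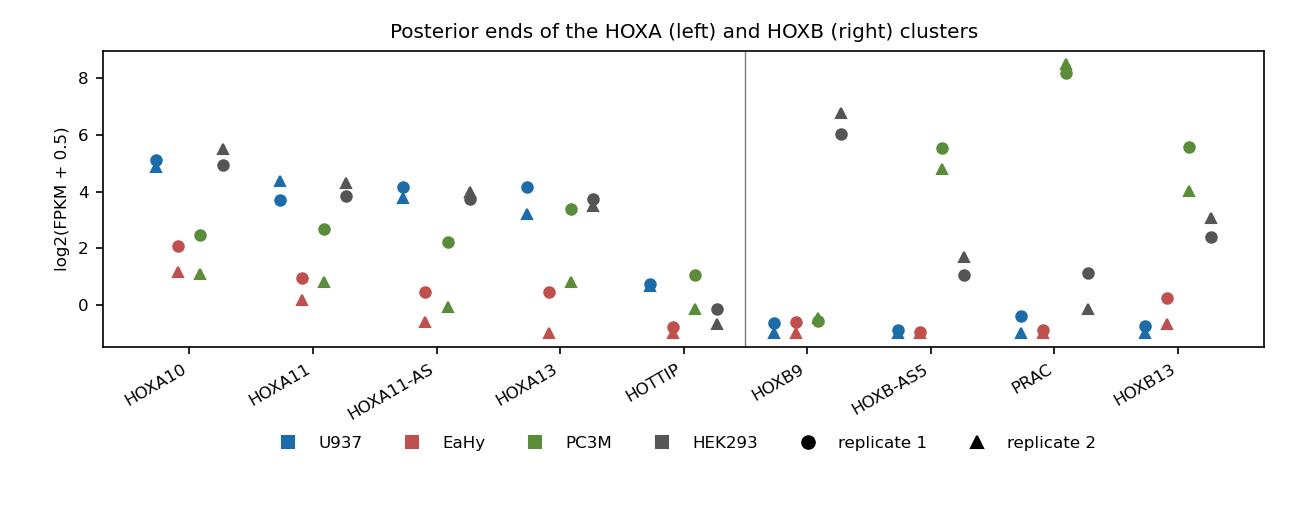
Points give log2(FPKM + 0.5) in each library for genes at the posterior end of HOXA (left) and HOXB (right), in the order along the chromosome. HOXB-AS5, PRAC and HOXB13 are highest in PC3M, where PRAC has 289 and 359 FPKM, while HOXB9 beside them is high in HEK293 alone.

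Genes that work with HOX proteins or set their expression were counted by lists. Of 9 TALE cofactor genes 8 were tested, and against HEK293 4 were lower in U937, 3 in EaHy and 6 in PC3M, with 0 higher in each, with median differences over the 9 of −0.63, −1.42 and −2.66, against 0.00, −0.19 and −0.60 over all genes. The shares of all tested genes lower were 10.6%, 9.80% and 25.3%, and the medians of the tested genes −0.22, −0.67 and −1.26. PKNOX2, among the lower genes in each line, passed the filter through HEK293 alone, so its difference was built in. MEIS2 had 0.192 and 0.0198 FPKM in U937, 2.73 and 4.01 FPKM in EaHy, 1.13 and 0.338 FPKM in PC3M, and 7.68 and 10.5 FPKM in HEK293. For MEIS2 HEK293 was above every other library. MEIS1, chosen after its values were seen, had 19.5 and 14.1 FPKM in U937, 1.99 and 1.21 FPKM in EaHy, 1.23 and 0.596 FPKM in PC3M, and 3.79 and 5.01 FPKM in HEK293. U937 was the line with the most MEIS1 beside its high HOXA9, and MEIS1 was higher in U937 than in EaHy and PC3M (adjusted p = 0.00837 and 0.00459) but missed the threshold against HEK293 (1.81 ± 0.56, adjusted p = 0.0681). PBX2, and among the other lists RING1 and RXRB, were listed at 0 in all 8 libraries, so their use cannot be judged.

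The caudal factors switch on central and posterior HOX genes in the embryo. CDX2 had 0.145 and 0 FPKM in U937, 0.126 and 0 FPKM in EaHy, 0 and 0.00322 FPKM in PC3M, and 8.32 and 15.4 FPKM in HEK293, and was the only CDX gene to reach the limit, in HEK293. Of 6 caudal and ParaHox genes 2 were tested, and against HEK293 1 was lower in U937, 1 in EaHy and 2 in PC3M. Both, CDX2 and PDX1, passed the filter through HEK293 alone, so for them a difference from HEK293 was built in. The medians over the 6 were 0.19, 0.17 and −0.01, and members other than CDX2 and PDX1 stayed at or below 0.385 FPKM in every library. Retinoic acid induces anterior HOX genes, and of 13 genes of its synthesis, breakdown and receptors 10 were tested: against HEK293, 0 were higher and 5 lower in U937, 1 higher and 4 lower in EaHy, and 2 higher and 3 lower in PC3M. Over all tested genes 4.47% were higher and 10.6% lower in U937, 4.55% and 9.80% in EaHy, and 2.39% and 25.3% in PC3M, so the 3 of 10 lower in PC3M were near the background. The 2 higher were CRABP2, a retinoic acid carrier, with 233 and 332 FPKM in PC3M and 20.4 and 21.7 FPKM in HEK293, and ALDH1A3, a synthesis enzyme, with 183 and 31.4 FPKM in PC3M and 2.85 and 2.56 FPKM in HEK293. The medians over the 13 were −1.5 in U937, 0.07 in EaHy and −0.91 in PC3M. CYP26A1, among the lower genes in each line, passed the filter through HEK293 alone, so its difference was built in. All 8 anterior HOX genes were absent in PC3M.

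Among the keepers of HOX states, 18 of 19 Polycomb genes and 12 of 14 trithorax and MLL genes were tested. Against HEK293, 0 Polycomb genes were lower in U937, 1 (JARID2) in EaHy and 9 in PC3M, and 0 were higher in any of the 3 lines. Of the trithorax and MLL genes, 0 were lower in U937, 1 (MLLT3) in EaHy and 5 in PC3M, with 0 higher. Of all tested genes 10.6% were lower in U937, 9.80% in EaHy and 25.3% in PC3M, the last being 12.1% under upper-quartile scaling and 8.98% under quantile normalization. Of 20 housekeeping genes, 4 were lower in PC3M, with a median difference of −1.58, against −2.08 for Polycomb and −2.64 for trithorax genes. MLL (KMT2A) stood at 9.10 and 4.90 FPKM in U937, 13.3 and 1.86 FPKM in EaHy, 0.594 and 0.116 FPKM in PC3M, and 14.8 and 10.8 FPKM in HEK293. It was called lower in PC3M than in HEK293 (−4.0 ± 0.86, limma adjusted p = 0.0166). A link between the levels of these genes and the HOX genes present was not tested. ASH2L, a core subunit of MLL complexes, had 24.8 and 29.6 FPKM in U937, 7.66 and 2.15 FPKM in EaHy, 1.20 and 0.342 FPKM in PC3M, and 13.8 and 23.2 FPKM in HEK293. CBX2, a Polycomb subunit that reads methylated histones, had 4.80 and 19.4 FPKM in U937, 8.89 and 7.43 FPKM in EaHy, 0.332 and 0.671 FPKM in PC3M, and 13.6 and 31.9 FPKM in HEK293. For all 3 genes PC3M was below every other library. The median differences of these lists in PC3M stand beside that of the housekeeping genes, and the part of the scale in them was not tested.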

How the data were processed

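The authors trimmed reads with cutadapt, aligned them with TopHat2 2.0.11 to hg19 and estimated expression with Cufflinks 2.2.1, per the submitters' processing notes; the annotation and strand setting are not given in the sources used here. The deposited table gives FPKM for each gene symbol in 8 libraries, and no further normalization between libraries is stated. FPKM carry no counts, so depth and counting error are unknown. Here log2(FPKM + 0.5) was fitted in R 4.3.3 with limma 3.58.1, with a term per line over all 8 libraries and a variance prior following the expression level, for the 16295 of 23615 genes that reached 0.5 FPKM in 2 or more libraries. Tests were two-sided, adjusted by Benjamini-Hochberg within each of 6 comparisons, and checked on simulated data. Presence, position classes and shares are counts and sums of deposited values. Named genes are the 3 genes of each cluster with the highest mean FPKM and up to 4 called genes with the largest difference per comparison, and of each other list up to 2 genes with the largest called change, with a few added after their values were seen, as said there. Some list genes are named because they passed the filter through a single line. The members, lists and rules were chosen with earlier results of these data known. Older symbols of list genes were matched through RefSeq synonyms held by a single gene; KMT2B and KMT2D could not be matched this way. Replicate numbers were not taken as pairs. Alternatives were other pseudocounts, no filter, 2 scalings, a replicate block, fits of the 2 lines compared, leaving out each library, other presence limits and, chosen after seeing the data, leaving out EaHy replicate 2 and both PC3M libraries. Some genes are not reported here by name, in text or figures, and stay in the counts.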

Additional observations from a re-analysis of the deposited data

How the results depend on the processing

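No named call reversed its direction under any alternative. The count of HOX genes called moved over 1.5 times as follows. With no filter on low values it was 3 for U937 against EaHy, 4 for U937 against PC3M and 2 for EaHy against PC3M. Quantile normalization gave 11 for U937 against EaHy and 8 for EaHy against PC3M, which upper-quartile scaling put at 7 and a fit of these 2 lines at 0, with 8 at an unadjusted p under 0.05. Leaving out a library in turn gave 13 to 21 for U937 against HEK293, 13 to 30 for EaHy against HEK293, 19 to 33 for PC3M against HEK293, 2 to 9 for U937 against EaHy, 3 to 11 for U937 against PC3M and 2 to 10 for EaHy against PC3M. A lone library was then assumed to vary like the other lines, so a call can be lost to the larger standard error. Genes present were 20 in U937 and 20 in EaHy by the mean, 22 in EaHy and 10 in PC3M at a limit of 0.1 FPKM, and 5 in EaHy at 1 FPKM. Single libraries gave 13 to 20 in U937 and 10 to 26 in EaHy. The cause of these moves was not tested.

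Of 51 calls of named genes, 17 were lost with no filter, 11 in fits of the 2 lines compared, 4 under upper-quartile scaling, 3 under quantile normalization, 4 at a pseudocount of 0.1, 1 at a pseudocount of 1 and between 3 and 20 without a single library. With a replicate block the 6 counts were 20, 27, 31, 7, 11 and 4, against 20, 26, 32, 7, 10 and 4, and 1 named call was lost (HOXA11, PC3M against HEK293, adjusted p = 0.0667). The replicate differences of the lines correlated at −0.15 to 0.33 across genes, so the numbers were not taken as pairs. Without EaHy replicate 2 and both PC3M libraries, 20 HOX genes were called between U937 and HEK293, all of them among the 20 of all libraries, and 18 between EaHy and HEK293, all among the 26. Upper-quartile scaling and quantile normalization moved the median difference of the tested genes between PC3M and HEK293 to −0.29 and 0.00, and between EaHy and HEK293 to −0.24 and −0.08, while the HOX genes called lower numbered 27 and 25 in PC3M and 22 and 23 in EaHy. The unknown depth limits every level near 0.5 FPKM.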
